A study of Mus musculus with 9 samples.

Results

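Genes that the vascular endothelium uses to keep blood fluid and to respond to flow were followed in the atherosclerotic mouse aorta. They were Vwf, Thbd, Procr, F3, Tfpi, Plat, Nos3, Klf2 and Klf4. The members were all probe sets that the platform annotation assigns to these symbols alone, which gave 14 probe sets of 9 genes, out of 45037 probe sets tested and 18193 genes measured. Tfpi had 4 probe sets, Plat and Klf4 had 2 each, and the other genes had 1 each.

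A resting endothelial surface holds coagulation back in several ways. Thrombomodulin and the endothelial protein C receptor turn thrombin towards activation of protein C, tissue factor pathway inhibitor blocks the tissue factor complex that starts clotting, and tissue plasminogen activator starts fibrin breakdown. The transcription factors KLF2 and KLF4 are induced by laminar shear stress, and in cultured human endothelial cells they raise thrombomodulin and endothelial nitric oxide synthase. Atherosclerosis forms where flow is disturbed, such as the inner curve of the aortic arch.

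Aortic RNA was measured on 9 single-colour Affymetrix mouse arrays, 3 for each of 3 groups. HDAd-gE3 animals received a helper-dependent adenovirus (a vector stripped of all viral genes) that expresses human apolipoprotein E3, HDAd-0 animals received the empty vector at the same viral dose, and PBS animals received phosphate-buffered saline, each by 1 tail vein injection. All were female APOE-/- mice on a C57BL/6 background, with an age given as 8 weeks, fed 0.2% cholesterol and 10% coconut oil for 30 weeks and killed 10 days after the injection. Each array held RNA pooled from 3 aortas, taken from sinus to arch. The promoter that drives the transgene was not given in the sources used here, and the level of the human transgene was not analysed here. The design gave 3 comparisons. HDAd-gE3 against HDAd-0 addressed apolipoprotein E3 with the vector held equal, HDAd-0 against PBS addressed the vector, and HDAd-gE3 against PBS addressed both together. They share arrays and are therefore not independent of each other.

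Across the arrays, the median log2 signal ran between 6.67 and 6.77, and correlations between arrays over all probe sets lay between 0.991 and 0.998. The 9 probe sets of Y-linked genes, which have no template in female mice, read 2.30 to 3.15, and every member read above that level on every array. HDAd-0 replicate 4 stood apart, with the lowest array weight (0.364) and the largest 3′ minus 5′ difference of the mouse beta-actin and Gapdh control probe sets. That difference, a sign of RNA or labelling quality, was 1.08, against 0.673 to 0.957 on the other 8 arrays. Results that rest on this array are given with and without it. All 20 pan-endothelial marker genes looked up, among them Pecam1, Cdh5 and Tie1, were measured above the Y-linked level.

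Promoter sequence was available in RefSeq (GRCm38.p6) for 5 of the 9 genes, and the 250 bases before the transcription start are shown for the pair of shear-responsive factors and for the clotting initiator, whose values follow. Capitals mark matches, on either strand, to the MEF2 consensus, to the AP-1 letters TGAGTCA and to the GC box GGGCGG. The windows lie at chr8:72318812-72319061 on the plus strand for Klf2, at chr3:121723287-121723536 on the plus strand for F3 and at chr4:55532476-55532725 on the minus strand for Klf4, each printed 5′ to 3′ in the direction of transcription.
Klf2: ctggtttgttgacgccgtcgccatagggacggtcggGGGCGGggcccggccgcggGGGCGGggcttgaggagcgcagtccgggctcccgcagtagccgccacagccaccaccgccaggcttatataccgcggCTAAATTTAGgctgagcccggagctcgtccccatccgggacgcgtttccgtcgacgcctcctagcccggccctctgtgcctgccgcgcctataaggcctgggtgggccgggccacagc
F3: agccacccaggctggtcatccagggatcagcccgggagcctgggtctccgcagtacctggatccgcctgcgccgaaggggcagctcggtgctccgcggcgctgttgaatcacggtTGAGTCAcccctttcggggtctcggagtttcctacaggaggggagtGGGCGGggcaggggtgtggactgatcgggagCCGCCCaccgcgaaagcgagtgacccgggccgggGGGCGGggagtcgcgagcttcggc
Klf4: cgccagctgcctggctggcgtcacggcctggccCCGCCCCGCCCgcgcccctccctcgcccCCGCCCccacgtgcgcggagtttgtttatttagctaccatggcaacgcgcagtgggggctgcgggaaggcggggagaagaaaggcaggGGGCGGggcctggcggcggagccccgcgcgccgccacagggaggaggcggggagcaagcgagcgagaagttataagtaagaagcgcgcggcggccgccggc
The Klf2 window held 1 MEF2 consensus, 118 to 109 bases before the start, and the windows printed for F3 and Klf4 held none. MEF2 factors are the known link between the kinase ERK5 and the Klf2 promoter under flow. The F3 window held 1 TGAGTCA, 135 to 129 bases before the start. GC boxes numbered 2 in Klf2, 3 in F3 and 4 in Klf4, where 1 pair overlaps. Among 32851 promoter windows of the same length, 2.92% held the MEF2 consensus, 4.46% held TGAGTCA and 32.7% held GGGCGG. Procr and Tfpi had windows that are not printed, and Procr held 1 TGAGTCA at 154 to 148 bases before the start its window counts from. That window, chr2:155750967-155751216, runs past the first base of the gene given below, 155751125, so its start lies inside the gene. The Tfpi windows, chr2:84474175-84474424 and chr2:84476760-84477009, also overlap the span of their gene given below.

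None of the 14 probe sets passed limma at an adjusted p under 0.05 in any comparison. The count over all 45037 probe sets was 0 for HDAd-gE3 against HDAd-0 (0%), 1 when HDAd-gE3 was compared with PBS (0.00222%) and 4 when HDAd-0 was compared with PBS (0.00888%). At an unadjusted p under 0.05, limma gave 2 members lower in HDAd-gE3 than in HDAd-0 (Vwf and Nos3) and 0 higher, against 6.76% of all probe sets lower and 6.08% higher. It gave 2 members higher in HDAd-gE3 than in PBS (F3 and Klf2), against 5.54% of all probe sets higher and 5.47% lower. It gave 4 members higher in HDAd-0 than in PBS (Vwf, F3, Nos3 and Klf2), against 6.59% higher and 5.75% lower. The median log2 difference over the 14 members was 0.0075 for HDAd-gE3 minus HDAd-0, 0.021 for HDAd-gE3 minus PBS and 0.026 for HDAd-0 minus PBS. Over all probe sets these medians were -0.017, -0.0047 and 0.010.

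Some members fell into arrangements by group, and F3 and Nos3 fell into both of those below. Vwf, Nos3 and F3 read highest in all 3 HDAd-0 arrays, above each of the other 6 arrays (3 of 14 members, against 3.08% of all probe sets; 0 members and 2.47% of all lay below). F3, Nos3 and Klf2 read higher in all 6 vector arrays than in any PBS array (3 of 14, against 3.76% of all probe sets; 0 members and 2.34% of all lay below). Thbd, Procr, Tfpi, Plat and Klf4 showed neither arrangement. With any 1 array left out, a check chosen after seeing the data, the first arrangement held the same 3 genes, against 3.49% to 7.9% of all probe sets. The second, against 4.27% to 6.69%, held 3 or 4 genes, with Thbd joining when HDAd-gE3 replicate 2 was left out, Vwf without PBS replicate 3 and Procr without PBS replicate 4.

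**Figure D1:**
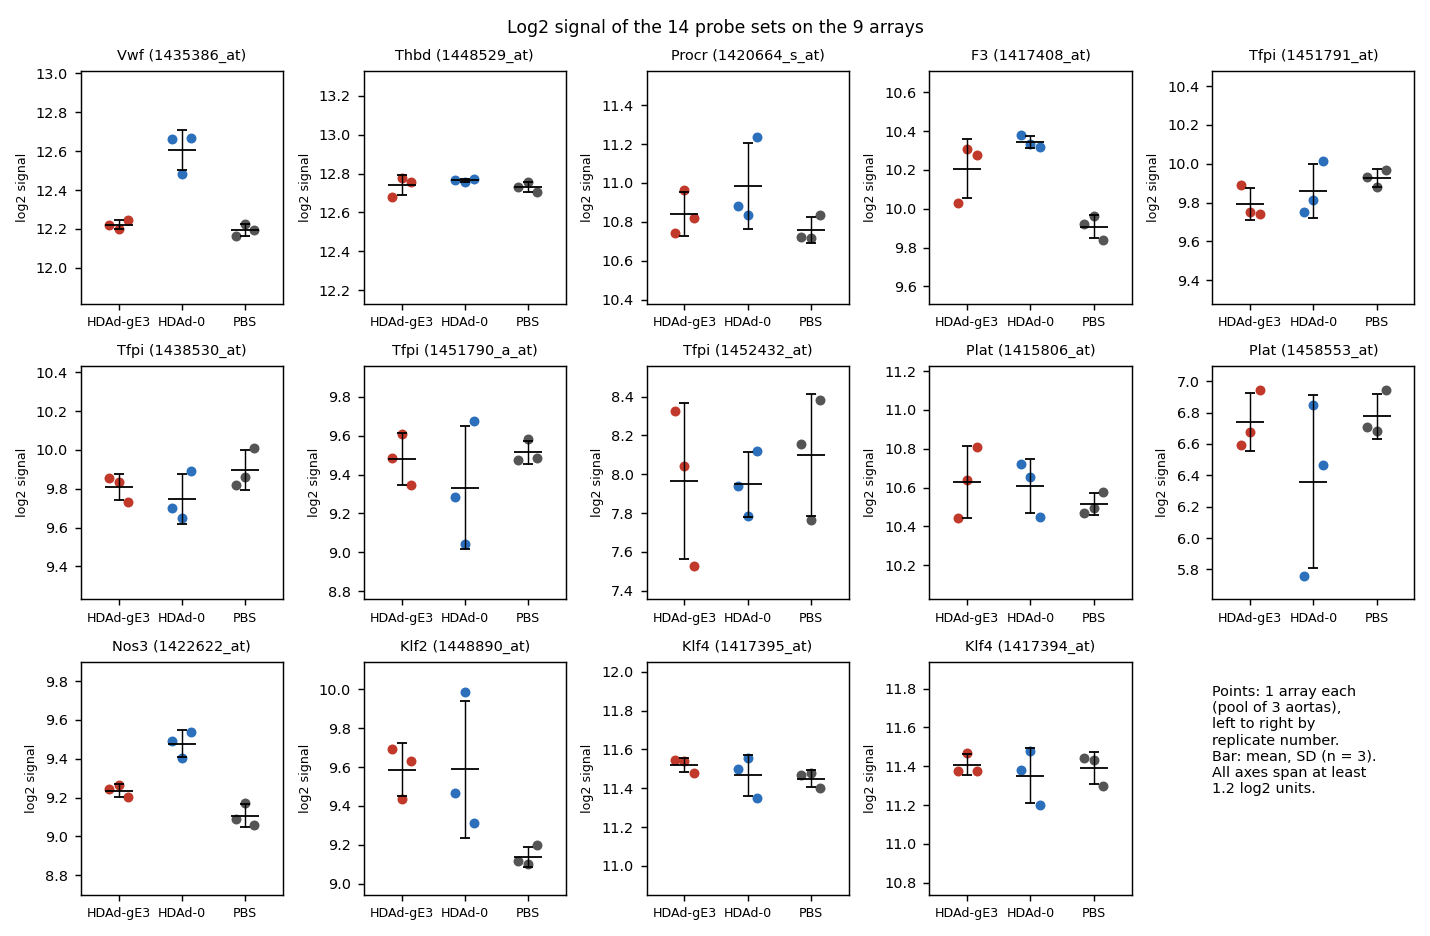
Log2 signal of the member probe sets on each of the 9 arrays, with HDAd-gE3 left of HDAd-0 and PBS; each point is 1 pool of 3 aortas and each bar is the group mean. Vwf, Nos3 and F3 are highest on the 3 HDAd-0 arrays, Klf2 is lowest on the 3 PBS arrays, and Thbd spans 0.0962 log2 units over all 9 arrays.

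Vwf, which encodes von Willebrand factor, the multimeric protein that tethers platelets and carries factor VIII, read brightly in all aortas (probe set 1435386_at; gene at chr6:125552948-125686679, GRCm38.p6). Its log2 signal was 12.22, 12.20 and 12.25 in HDAd-gE3 aortas, 12.66, 12.48 and 12.67 in HDAd-0 aortas and 12.16, 12.23 and 12.19 in PBS aortas. The HDAd-0 arrays lay above all others, while the HDAd-gE3 and PBS arrays overlapped. HDAd-gE3 was 0.38 ± 0.070 log2 units below HDAd-0 (SE, n = 3 each; 1.30-fold; limma adjusted p = 0.173). HDAd-0 was 0.41 ± 0.070 log2 units above PBS (1.33-fold; limma adjusted p = 0.127), and HDAd-gE3 differed from PBS by 0.03 ± 0.070 (95% interval -0.13 to 0.18; limma adjusted p = 0.925). HDAd-0 replicate 4 was singled out partly by its array weight, which comes from these same data. Its Vwf was the lowest of its group, so leaving it out could only widen the differences from the other groups. Without that array, the difference passed the threshold in both comparisons that use HDAd-0. It was then -0.44 for HDAd-gE3 against HDAd-0 (limma adjusted p = 0.0347, with 0.893% of all probe sets called) and 0.47 for HDAd-0 against PBS (limma adjusted p = 0.0304, with 1.2% called). With the variance fitted as a trend on intensity, the difference from PBS also passed with all 9 arrays (limma adjusted p = 0.0360, with 0.0511% called), as it did with the trend and robust estimation (limma adjusted p = 0.0335, with 0.0555% called). Of 21 alternative runs, only these 3 passed for HDAd-0 against PBS (limma adjusted p up to 0.481). Only 1 of 21 passed for HDAd-gE3 against HDAd-0 (limma adjusted p up to 0.465). The 3′ minus 5′ control difference as covariate gave 0.43 for HDAd-0 minus PBS (limma adjusted p = 0.106). It gave -0.44 for HDAd-gE3 minus HDAd-0 (limma adjusted p = 0.286).

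Megakaryocytes and platelets also hold von Willebrand factor. The 9 measured of 10 platelet and megakaryocyte genes had a mean log2 signal of 8.56 to 9.20 in HDAd-gE3, 7.89 to 9.54 in HDAd-0 and 8.49 to 8.97 in PBS aortas, and 2 of the 9 read higher in HDAd-0 than in PBS. The mean of 20 pan-endothelial genes was 9.98 to 10.10 in HDAd-gE3, 10.08 to 10.34 in HDAd-0 and 9.86 to 9.96 in PBS aortas. The part of platelets and of endothelial content in the Vwf values was not tested. In RNA from a whole vessel wall, a different number of endothelial cells and a different amount of RNA per endothelial cell cannot be told apart.

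Nos3, the endothelial nitric oxide synthase, whose product relaxes smooth muscle and restrains platelets, was likewise highest in HDAd-0 (probe set 1422622_at; gene at chr5:24364816-24384474). Its log2 signal was 9.24, 9.26 and 9.20 in HDAd-gE3, 9.49, 9.40 and 9.54 in HDAd-0 and 9.09, 9.17 and 9.06 in PBS aortas. No group overlapped another: HDAd-0 was highest, HDAd-gE3 intermediate and PBS lowest. HDAd-gE3 was 0.24 ± 0.066 log2 units below HDAd-0 (1.18-fold; limma adjusted p = 0.244) and 0.13 ± 0.066 above PBS (limma adjusted p = 0.522). HDAd-0 was 0.37 ± 0.066 above PBS (1.29-fold, limma adjusted p = 0.143). Without HDAd-0 replicate 4, again the lowest of its group, this difference was 0.41. Of 21 alternative runs, only that 1 passed (limma adjusted p = 0.0414, with 1.2% of all probe sets called). In the same fit HDAd-gE3 minus HDAd-0 was -0.28 and did not pass (limma adjusted p = 0.0988, with 0.893% called).

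Of the surface receptors that turn thrombin to anticoagulant use, Thbd was steady and Procr more variable. Thbd, thrombomodulin, was the brightest member and the steadiest (probe set 1448529_at; gene at chr2:148404471-148408188). It read 12.68, 12.78 and 12.76 in HDAd-gE3, 12.77, 12.76 and 12.77 in HDAd-0 and 12.73, 12.76 and 12.71 in PBS aortas. All 3 HDAd-0 arrays lay above PBS, though the whole range over the 9 arrays was 0.0962 log2 units. The 95% intervals for Thbd ran between -0.16 and 0.11 for HDAd-gE3 against HDAd-0, between -0.12 and 0.14 for HDAd-gE3 minus PBS and between -0.10 and 0.17 for HDAd-0 against PBS.

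Procr, the endothelial protein C receptor, which presents protein C to thrombomodulin, read 10.74, 10.96 and 10.82 in HDAd-gE3, 10.88, 10.84 and 11.24 in HDAd-0 and 10.72, 10.72 and 10.84 in PBS aortas (probe set 1420664_s_at; gene at chr2:155751125-155755478). One HDAd-0 array stood high and the groups overlapped otherwise. Procr in HDAd-0 was 0.23 log2 units above PBS, with a 95% interval of -0.03 to 0.49 (limma adjusted p = 0.461). That difference was 0.30 without HDAd-0 replicate 4 (limma adjusted p = 0.252), 0.29 with the 3′ minus 5′ control difference as covariate (limma adjusted p = 0.261) and 0.10 with the high array, HDAd-0 replicate 5, left out. The interval for HDAd-gE3 against HDAd-0 was -0.40 to 0.12.

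F3, tissue factor, the cell surface receptor for factor VII that starts clotting, is made in the vessel wall by adventitial cells, smooth muscle and plaque macrophages as well as by activated endothelium (probe set 1417408_at; gene at chr3:121723537-121735052). Its log2 signal was 10.03, 10.31 and 10.28 in HDAd-gE3, 10.38, 10.34 and 10.32 in HDAd-0 and 9.92, 9.96 and 9.84 in PBS aortas. Every vector array lay above every PBS array, and the HDAd-0 arrays lay just above the highest HDAd-gE3 array. HDAd-gE3 was 0.30 ± 0.085 log2 units above PBS (1.23-fold; limma adjusted p = 0.293), and HDAd-0 was 0.44 ± 0.085 above PBS (1.35-fold; limma adjusted p = 0.158). HDAd-gE3 was 0.14 ± 0.085 below HDAd-0 (limma adjusted p = 0.511), and only 0.05 below it without HDAd-gE3 replicate 2. The 12 monocyte and macrophage genes measured averaged 11.63 to 11.68 in HDAd-gE3, 11.79 to 11.88 in HDAd-0 and 11.70 to 11.76 in PBS aortas, so they were highest in HDAd-0, as F3 was, but lower in HDAd-gE3 than in PBS, as F3 was not. The part of these cells in the F3 values was not tested.

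Tfpi, the inhibitor of the tissue factor and factor VIIa complex, showed no group apart on any of its 4 probe sets (gene at chr2:84432855-84476775). On the brightest, 1451791_at, it read 9.89, 9.75 and 9.74 in HDAd-gE3, 9.75, 9.81 and 10.02 in HDAd-0 and 9.93, 9.88 and 9.97 in PBS aortas. Over the 4 probe sets, the mean of HDAd-gE3 was between 0.14 and 0.03 log2 units below PBS and the mean of HDAd-0 was between 0.18 and 0.07 below PBS. The PBS arrays are shared by these comparisons and the 4 probe sets read 1 gene, and none of the differences had an unadjusted p under 0.05. For HDAd-gE3 against HDAd-0, 1 probe set gave -0.07 and the others gave 0.02 to 0.15. The Tfpi transcripts that each probe set reads were not analysed here.

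Plat, tissue plasminogen activator, had a bright and a dim probe set, which disagreed (gene at chr8:22757722-22782848). The bright one, 1415806_at, read 10.44, 10.64 and 10.81 in HDAd-gE3, 10.72, 10.65 and 10.45 in HDAd-0 and 10.47, 10.50 and 10.58 in PBS aortas. The groups overlapped, and HDAd-gE3 differed from HDAd-0 by 0.02 log2 units (95% interval -0.23 to 0.27). The dim one, 1458553_at, spanned 1.19 log2 units over the 9 arrays, with HDAd-0 arrays at 5.76, 6.85 and 6.47. It gave 0.38 for HDAd-gE3 against HDAd-0 and -0.42 for HDAd-0 against PBS, where the bright one gave 0.09. Without HDAd-0 replicate 3, the array at 5.76, these values of the dim probe set were 0.08 and -0.12, so their size rested largely on that array.

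Klf2 read higher in both vector groups than in PBS (probe set 1448890_at; gene at chr8:72319062-72321654). Its log2 signal was 9.69, 9.43 and 9.63 in HDAd-gE3, 9.47, 9.99 and 9.31 in HDAd-0 and 9.12, 9.10 and 9.20 in PBS aortas. The PBS arrays lay close together and below all 6 vector arrays, and the HDAd-0 arrays spread most. HDAd-gE3 was 0.45 ± 0.160 log2 units above PBS (1.37-fold; limma adjusted p = 0.376), and HDAd-0 was 0.45 ± 0.160 above PBS (1.37-fold; limma adjusted p = 0.324). Between HDAd-gE3 and HDAd-0 the 95% interval was -0.36 to 0.36.

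The HDAd-0 level of Klf2 rested largely on replicate 4, the array that stood apart. Without it, HDAd-0 was 0.25 above PBS and HDAd-gE3 was 0.20 above HDAd-0. With the 3′ minus 5′ control difference as a covariate, Klf2 in HDAd-gE3 was 0.33 ± 0.143 above HDAd-0 (limma adjusted p = 0.508) and 0.67 ± 0.124 above PBS (limma adjusted p = 0.283). That control difference averaged 0.735 ± 0.0689 in HDAd-gE3, 0.933 ± 0.163 in HDAd-0 and 0.866 ± 0.0710 in PBS (SD, n = 3 each). Lymphocytes express Klf2 too, and the 7 measured of 8 lymphocyte genes averaged 7.78 to 8.54 in HDAd-gE3, 7.88 to 8.59 in HDAd-0 and 7.90 to 8.19 in PBS aortas. The 4 measured of 8 erythroid genes, a sign of blood in the sample, had a higher list mean in both vector groups. It was 8.44 to 8.89 in HDAd-gE3, 8.01 to 8.60 in HDAd-0 and 7.19 to 7.52 in PBS aortas. Of the 4 genes, 3 had a higher mean in each vector group than in PBS. The haemoglobin gene Hba-a1 went the other way, averaging 3.39 in HDAd-gE3, 3.55 in HDAd-0 and 3.63 in PBS aortas. These Hba-a1 values lay little above the highest Y-linked value, 3.15. No gene of either list was at or below the Y-linked level, and their part in the Klf2, F3 and Nos3 values was not tested.

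Klf4, the other shear-induced Krüppel-like factor, which smooth muscle and macrophages of the plaque also express, did not share the Klf2 arrangement (gene at chr4:55527137-55532475). On probe set 1417395_at it read 11.54, 11.54 and 11.48 in HDAd-gE3, 11.50, 11.55 and 11.35 in HDAd-0 and 11.47, 11.48 and 11.40 in PBS aortas. The groups overlapped, also on the other probe set, 1417394_at. The 95% interval of the HDAd-gE3 minus PBS difference was -0.09 to 0.24 on one probe set and -0.18 to 0.21 on the other, so a difference the size of that of Klf2 lay outside both intervals.

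**Figure D2:**
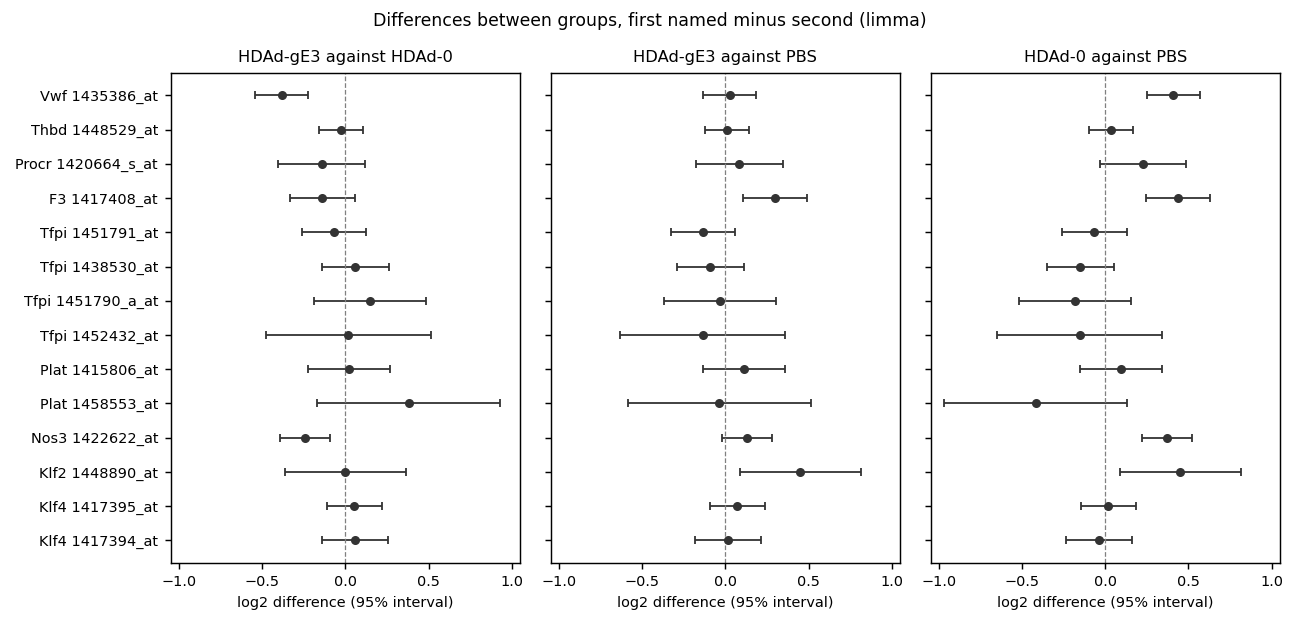
Log2 difference of each member probe set in the 3 comparisons, with the 95% interval of the limma fit (3 arrays a group, 9 in the fit). The intervals of Vwf and Nos3 lie below 0 for HDAd-gE3 against HDAd-0, those of F3 and Klf2 lie above 0 in both comparisons with PBS, and the adjusted p was above 0.05 for all of them.

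Between groups, 3 members (Vwf, F3 and Nos3) had all HDAd-gE3 arrays below all HDAd-0 arrays, against 9.56% of all probe sets. All HDAd-gE3 arrays lay above all PBS arrays for 3 members (F3, Nos3 and Klf2), against 10.6%, and all HDAd-0 arrays lay above all PBS arrays for 5 members (Vwf, Thbd, F3, Nos3 and Klf2), against 9.43%. In the other direction 0 members were separated, against 6.3% of all probe sets with HDAd-gE3 above HDAd-0, 10.3% with HDAd-gE3 below PBS and 7.46% with HDAd-0 below PBS. The median size of a member's difference, whatever its sign, was 0.064 log2 units between HDAd-gE3 and HDAd-0, 0.087 between HDAd-gE3 and PBS, and 0.166 where HDAd-0 was set against PBS. Over all probe sets it was 0.110, 0.101 and 0.104.

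The members were then set beside endothelial genes in general. Of the 20 pan-endothelial genes, 18 had a lower mean in HDAd-gE3 than in HDAd-0 (median difference -0.20, against -0.040 over all genes). A higher mean in HDAd-0 than in PBS was seen for 18 genes (median 0.34, against 0.024), and 16 had a higher mean in HDAd-gE3 than in PBS (median 0.12, against -0.015). None passed limma after adjustment over all probe sets. At an unadjusted p under 0.05, 7 of 20 were lower in HDAd-gE3 than in HDAd-0 (6.76% of all probe sets). At that threshold 6 were higher in HDAd-gE3 than in PBS (5.54%) and 13 higher in HDAd-0 than in PBS (6.59%). Tie1, an endothelial receptor tyrosine kinase, differed by -0.37 ± 0.072 in HDAd-gE3 minus HDAd-0 (limma adjusted p = 0.181) and by 0.57 ± 0.072 in HDAd-0 minus PBS (limma adjusted p = 0.0810). S1pr1, the sphingosine 1-phosphate receptor, differed by -0.34 ± 0.064 (limma adjusted p = 0.177) and 0.55 ± 0.064 (limma adjusted p = 0.0797) in the same comparisons.

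Markers of other tissues differed between the same groups. The 10 cardiac muscle genes averaged 12.42 to 13.41 in HDAd-gE3, 12.10 to 12.77 in HDAd-0 and 13.07 to 13.15 in PBS aortas, with 9 of 10 higher in HDAd-gE3 than in HDAd-0 (median 0.50) and 10 of 10 lower in HDAd-0 than in PBS (median -0.71). The 9 measured of 10 neutrophil genes averaged 9.56 to 10.93 in HDAd-gE3, 8.49 to 9.17 in HDAd-0 and 8.76 to 9.05 in PBS aortas. The smooth muscle list averaged 12.69 to 12.73 in HDAd-gE3, 12.53 to 12.63 in HDAd-0 and 12.68 to 12.73 in PBS aortas. Cardiac and smooth muscle list means were thus lowest in the group where endothelial genes were highest, but skeletal muscle genes went the other way. Those 10 genes averaged 5.84 to 6.56 in HDAd-gE3, 6.37 to 8.12 in HDAd-0 and 6.54 to 6.74 in PBS aortas. Of them, 8 were lower in HDAd-gE3 than in HDAd-0 (median -0.97) and 7 higher in HDAd-0 than in PBS (median 0.94). No gene of these lists was at or below the Y-linked level, and their part in the endothelial and member values was not tested.

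Over the 9 arrays, the correlation with the pan-endothelial mean was 0.948 for Nos3, 0.869 for Vwf, 0.747 for F3 and 0.713 for Procr. It was 0.447 for Thbd, 0.254 for Klf2, -0.043 for Tfpi, -0.025 for Plat and -0.114 for Klf4, on the brightest probe set of each. These are descriptions across arrays that share groups, and each pair of values comes from the same pool. Nos3 and Vwf therefore ran close to the endothelial genes, while Tfpi, Plat and Klf4 did not.

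**Figure D3:**
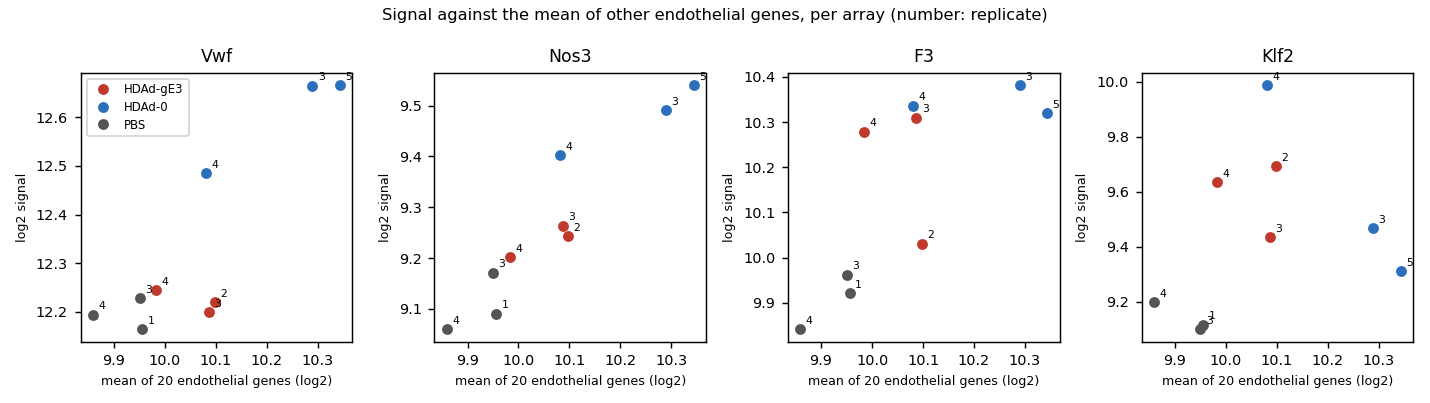
Log2 signal of Vwf, Nos3, F3 and Klf2 against the mean log2 signal of the 20 pan-endothelial genes on the same array, coloured by group. Each point is 1 array. Nos3 and Vwf climb with the endothelial mean (r = 0.948 and 0.869 over 9 arrays). F3 does so less closely (r = 0.747) and Klf2 only weakly (r = 0.254).

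Levels were also taken relative to the pan-endothelial mean of the same array and compared by a two-sided exact permutation test, which with 3 against 3 arrays cannot go below p = 0.1. On that scale Nos3 overlapped in all 3 comparisons, differing by -0.06 between HDAd-gE3 and HDAd-0 (exact permutation p = 0.3), by -0.01 from PBS in HDAd-gE3 (exact permutation p = 0.9) and by 0.05 from PBS in HDAd-0 (exact permutation p = 0.5). Vwf was 0.20 lower in HDAd-gE3 than in HDAd-0 with no overlap (exact permutation p = 0.1) and was 0.09 higher in HDAd-0 than in PBS (exact permutation p = 0.2). Klf2 was 0.32 higher in HDAd-gE3 than in PBS with no overlap (exact permutation p = 0.1), but 0.13 higher in HDAd-0 than in PBS with overlap (exact permutation p = 0.8), and -0.14 in that comparison without HDAd-0 replicate 4. F3 overlapped in all 3 comparisons, with 0.16 for HDAd-gE3 minus PBS (exact permutation p = 0.4) and 0.12 for HDAd-0 minus PBS (exact permutation p = 0.3).

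The comparisons with PBS depended on how the endothelial genes were summarised. With the median of the 20 genes in place of their mean, HDAd-0 minus PBS turned to -0.04 for Vwf, -0.080 for Nos3 and -0.01 for F3. The HDAd-gE3 minus PBS difference was then -0.14 for Nos3 and -0.24 for Vwf, 0.03 for F3 and 0.18 for Klf2. Klf2 no longer stood clear of PBS in HDAd-gE3 with that median or with the mean of only 5 endothelial genes, since 0 members were separated above PBS under either. Vwf kept its difference of -0.20 between HDAd-gE3 and HDAd-0 with the median and had -0.15, with overlap, with the 5 genes.

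Thbd, both Klf4 probe sets and all 4 Tfpi probe sets lay below PBS in HDAd-0 when set against the endothelial mean. The difference was -0.28 for Thbd, -0.30 and -0.35 for Klf4 and between -0.50 and -0.38 for Tfpi, each with exact permutation p = 0.1. These 7 of 14 probe sets stand beside 51.2% of all probe sets that were separated on this scale, since the endothelial mean itself was higher in HDAd-0. For HDAd-gE3 against PBS 5 of 14 were separated (32.4% of all probe sets), namely Klf2 above, and Tfpi 1451791_at (-0.27), Tfpi 1438530_at (-0.22) and both Klf4 probe sets (-0.06 and -0.12) below. For HDAd-gE3 against HDAd-0 there were 3 of 14 (22.5%), Vwf below, and Tfpi 1438530_at (0.24) and 1451790_a_at (0.33) above.

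By Pearson correlation over the 9 arrays, among 9095 genes above the median level, the genes most like Nos3 were Tmem86a (0.978), Tie1 (0.977) and Pecam1 (0.976), the last being the junction protein used to mark endothelium. Those most like Vwf were Clec14a (0.951), Tek (0.949) and Car8 (0.947), of which Clec14a and Tek encode endothelial receptors. F3 was most like Pilra (0.982), Pdlim2 (0.966) and D16Ertd472e (0.956), and Klf2 was most like Hdac3 (0.975), Wdsub1 (0.974) and Dnttip1 (0.967). The pairs among the members included Vwf with Nos3 (0.937), Tfpi with Plat (-0.810) and Tfpi with Klf4 (-0.728). With 9 arrays and 9095 genes searched, values this high are found for many profiles, and each is a description only.

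The highest correlations of the other members were lower for Thbd (Rb1, 0.919), Tfpi (Gimap8, 0.887), Plat (Bmpr1b, 0.924) and Klf4 (Ccdc69, 0.900). Procr was most like Vps29 (0.963), Gbp2 (0.961) and Clec7a (0.947), the last encoding the myeloid receptor dectin-1.

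Genes of related pathways were read next, and none of them passed limma in any comparison. As a background, 6.08% of all probe sets were higher and 6.76% lower in HDAd-gE3 than in HDAd-0 at an unadjusted p under 0.05, 5.54% higher and 5.47% lower in HDAd-gE3 than in PBS, and 6.59% higher and 5.75% lower in HDAd-0 than in PBS. The medians over all genes were -0.040 for HDAd-gE3 minus HDAd-0, -0.015 for HDAd-gE3 minus PBS and 0.024 for HDAd-0 minus PBS.

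The rest of the clotting system was read from 21 measured of 24 coagulation, protein C and protease-activated receptor genes. Of these, 17 had a lower mean in HDAd-gE3 than in HDAd-0 (median -0.19), 19 had a higher mean in HDAd-0 than in PBS (median 0.13), and the split was 11 higher and 10 lower for HDAd-gE3 against PBS (median 0.02). At an unadjusted p under 0.05, 6 of the 21 were lower in HDAd-gE3 than in HDAd-0 (6.76% of all probe sets), 1 was higher in HDAd-gE3 than in PBS (5.54%) and 5 were higher in HDAd-0 than in PBS (6.59%). One of the 21, Serpina5, averaged 2.98 in HDAd-gE3, 3.17 in HDAd-0 and 3.05 in PBS aortas, at about the Y-linked level. Hs3st1, the sulfotransferase that builds the antithrombin-binding site of heparan sulfate, was 0.36 ± 0.099 lower in HDAd-gE3 than in HDAd-0 (limma adjusted p = 0.248) and 0.63 ± 0.099 higher in HDAd-0 than in PBS (limma adjusted p = 0.101). F10, factor X, was 0.28 ± 0.095 lower in HDAd-gE3 than in HDAd-0 (limma adjusted p = 0.308).

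F2, prothrombin, averaged 6.04 ± 0.59 in HDAd-0 and 4.56 ± 0.40 in PBS aortas (SD, n = 3 each; difference 1.48 ± 0.353 SE; limma adjusted p = 0.202). Serpinc1, antithrombin, was 0.83 ± 0.231 higher in HDAd-0 than in PBS (limma adjusted p = 0.242), and Plg, plasminogen, was 0.66 ± 0.124 higher (limma adjusted p = 0.147). These 3 are secreted by hepatocytes. All 8 liver genes measured read higher in HDAd-0 than in PBS, with a list mean of 7.88 to 8.69 in HDAd-gE3, 8.40 to 10.0 in HDAd-0 and 7.57 to 8.01 in PBS aortas, and their part in the F2, Serpinc1 and Plg values was not tested. Among the 8 measured of 10 fibrinolysis genes the median difference was -0.01 for HDAd-gE3 against HDAd-0, 0.02 for HDAd-gE3 minus PBS and 0.01 for HDAd-0 minus PBS, and Plg was the 1 gene with an unadjusted p under 0.05, in both comparisons that use HDAd-0.

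Selp, P-selectin, is stored with von Willebrand factor in the Weibel-Palade bodies of endothelial cells and in platelet granules. It was 0.38 ± 0.074 lower in HDAd-gE3 than in HDAd-0 (limma adjusted p = 0.183) and 0.24 ± 0.074 lower in HDAd-gE3 than in PBS (limma adjusted p = 0.312), so its HDAd-gE3 arrays lay below both other groups, unlike those of Vwf. The 8 measured of 10 storage granule genes split evenly, 4 higher and 4 lower, for HDAd-gE3 against HDAd-0 (median -0.01), and Selp was the 1 gene with an unadjusted p under 0.05, in both comparisons that use HDAd-gE3.

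The 13 nitric oxide and cyclic GMP genes had median differences of -0.03 for HDAd-gE3 against HDAd-0, 0.01 for HDAd-gE3 minus PBS and 0.02 for HDAd-0 minus PBS. At an unadjusted p under 0.05, 1 was higher and 2 were lower in HDAd-gE3 than in HDAd-0, 1 was lower in HDAd-gE3 than in PBS and 1 was higher in HDAd-0 than in PBS. Nostrin, which binds and relocates the synthase, differed in the direction of Nos3, by -0.17 ± 0.069 in HDAd-gE3 minus HDAd-0 (limma adjusted p = 0.375) and 0.18 ± 0.069 in HDAd-0 minus PBS (limma adjusted p = 0.359). Gch1, which makes the synthase's cofactor tetrahydrobiopterin, was 0.29 ± 0.114 lower in HDAd-gE3 than in PBS (limma adjusted p = 0.416). Of the 5 measured of 6 prostacyclin and platelet inhibitor genes, 1 had an unadjusted p under 0.05. This was Nt5e, the ectonucleotidase that forms adenosine, which was 0.33 ± 0.094 lower in HDAd-gE3 than in HDAd-0 (limma adjusted p = 0.258) and 0.43 ± 0.094 lower in HDAd-gE3 than in PBS (limma adjusted p = 0.191).

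Among 17 genes of shear sensing, the ERK5 pathway and KLF partners, 12 had a higher mean in HDAd-gE3 than in PBS (median 0.06) and 14 had a higher mean in HDAd-0 than in PBS (median 0.09). At an unadjusted p under 0.05, 2 of 17 were higher in each of these comparisons (5.54% and 6.59% of all probe sets), Plxnd1 and Txnip, and 0 were lower. Plxnd1, a semaphorin receptor that senses shear, was 0.24 ± 0.092 higher in HDAd-gE3 than in PBS (limma adjusted p = 0.401) and 0.41 ± 0.092 higher in HDAd-0 than in PBS (limma adjusted p = 0.185). Between HDAd-gE3 and HDAd-0, 10 genes had a higher and 7 a lower mean (median 0.01), and 0 had an unadjusted p under 0.05. Of 10 genes that laminar flow holds low, 6 had a lower and 4 a higher mean in HDAd-gE3 than in HDAd-0 (median -0.087). The split was 5 and 5 for HDAd-gE3 against PBS (median -0.0019). It was 7 higher and 3 lower for HDAd-0 against PBS (median 0.080). At an unadjusted p under 0.05, 2 were lower in HDAd-gE3 than in HDAd-0 (Sele and Bmp4) and 1 was higher in HDAd-0 than in PBS (Sele). Sele, E-selectin, was 0.49 ± 0.112 lower in HDAd-gE3 than in HDAd-0 (limma adjusted p = 0.216) and 0.45 ± 0.112 higher in HDAd-0 than in PBS (limma adjusted p = 0.202), the direction of Vwf and Nos3.

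**Figure D4:**
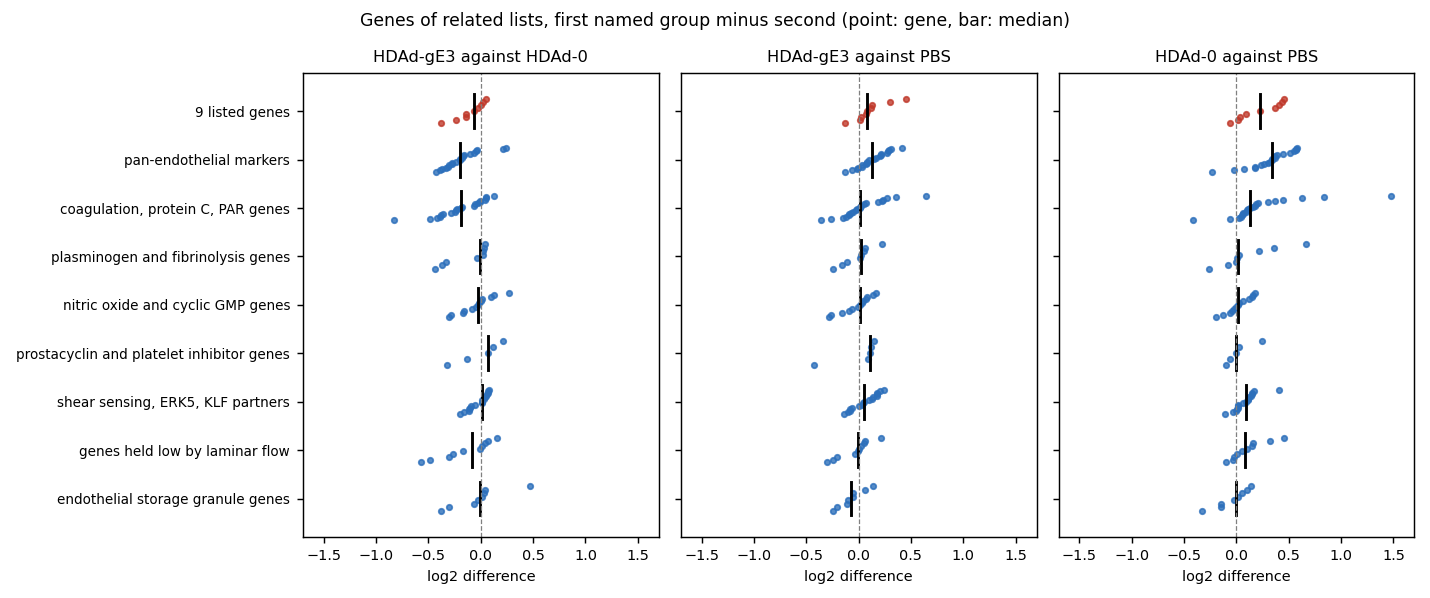
Log2 difference of each measured gene of the related lists in the 3 comparisons; each point is 1 gene and each bar is the list's median. The pan-endothelial list has its median at -0.20 for HDAd-gE3 against HDAd-0 and 0.34 for HDAd-0 against PBS, while the nitric oxide, fibrinolysis and storage granule lists have medians within 0.08 of 0.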

How the data were processed

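The deposited log2 values were made by the authors with RMA (background correction, quantile normalization and probe set summary), per the submitters' processing notes; its version was not given in the sources used here. RNA was extracted from pooled aortas and amplified with a whole-transcriptome kit before biotin labelling, per the labels' protocols. Groups were taken from the labels. The members, the gene lists and the tests were chosen with earlier results of these data known. The 64 control probe sets were left out of the 45101 in the file. Of the 45037 tested, 34945 had 1 gene symbol in the platform annotation, 932 had several and 9160 had none; only those with 1 were named.

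All probe sets of the 9 arrays were fitted together with limma 3.58.1 in R 4.3.3 (lmFit and eBayes, two-sided, Benjamini-Hochberg adjustment over all of them, threshold 0.05). Lists used each gene's brightest probe set. The genes named were the members and, per list and comparison, genes among the 3 with the smallest unadjusted p; Pecam1 and Cdh5 serve as examples of the markers. The nearest genes were the 3 with the highest correlation. The array number limits the precision; the p-values measure the spread between these pools, whose independence as groups of animals is not stated. The fit was tested on simulated data, with recovery required only for planted changes far larger than the member differences reported here. The alternatives were another probe set rule, median centring, a filter on dim probe sets, fits of 2 groups, a replicate block, the control signal as covariate, array weights, an intensity trend, leaving out arrays and, for levels relative to endothelial genes, their median or a set of 5 genes. Promoters are the 250 bases before the start of the RefSeq promoter entry. For Procr that start lies inside the gene span, and the Tfpi windows also overlap their gene span. Figures were drawn with matplotlib 3.10.9.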

Additional observations from a re-analysis of the deposited data

How the results depend on the processing

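The log2 signal differences of Vwf and Nos3 between HDAd-gE3 and HDAd-0, and those of F3, Klf2, Vwf and Nos3 between HDAd-0 and PBS, kept their direction under every alternative run. Under all alternatives together, 783 member differences kept both direction and side of the threshold, 5 passed it in addition and 61 changed sign. With only 3 pools a group, differences as small as those of Thbd, Tfpi, Plat and Klf4 cannot be resolved. The cause of the changes below was not tested.

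The counts of probe sets called over the whole table are given in the order HDAd-gE3 against HDAd-0, HDAd-gE3 against PBS, HDAd-0 against PBS, beside 0, 1 and 4 in the report. They were 1, 23 and 12 with 1 probe set per gene, 1, 24 and 15 with the mean of a gene's probe sets, and 3, 74 and 35 with dim probe sets left out. For the 2 comparisons with PBS, fits of only the 2 groups compared gave 12 and 0, the intensity trend gave 86 and 23, the trend with robust estimation gave 86 and 25, and a threshold of 0.1 gave 70 and 47. Array weights gave 279 for HDAd-gE3 against PBS, and the control signal as covariate gave 0 for both. Leaving out HDAd-gE3 replicate 4 and HDAd-0 replicate 5 together gave 0 and 1. With 1 array left out at a time, the counts ran between 0 and 402, between 0 and 12 and between 0 and 542, the 402 and 542 coming without HDAd-0 replicate 4. Members called then ran between 0 and 1 for HDAd-gE3 against HDAd-0 and between 0 and 2 for HDAd-0 against PBS. With the trend, alone or robust, 1 member (Vwf) was called for HDAd-0 against PBS.

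Replicate numbers 3 and 4 are shared between groups, and same-numbered arrays deviated together only weakly (r between 0.0112 and 0.128 over 6 pairs), so the numbers were not taken to pair the pools. A replicate block ended the calls in both comparisons with PBS, leaving 0 and 0. Under it HDAd-gE3 minus HDAd-0 changed sign for Thbd (0.0059), Procr (0.034), Tfpi 1452432_at (-0.078) and Klf4 (-0.017 and -0.0053), HDAd-gE3 minus PBS for Plat 1458553_at (0.00067) and HDAd-0 minus PBS for Klf4 1417394_at (0.064).

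For HDAd-gE3 minus HDAd-0, median centring of the arrays turned Tfpi 1438530_at (-0.0044), Tfpi 1452432_at (-0.048), Plat 1415806_at (-0.043) and Klf4 (-0.011 and -0.0092). For HDAd-gE3 minus PBS it turned Vwf (-0.013), Thbd (-0.030) and Klf4 1417394_at (-0.022). The covariate turned, for HDAd-gE3 minus HDAd-0, 3 Tfpi probe sets (-0.043, -0.177 and -0.247) and Klf2 (0.33). For HDAd-gE3 minus PBS it turned Vwf (-0.011), Procr (-0.045) and Plat 1458553_at (0.092), and for HDAd-0 minus PBS Klf4 1417395_at (-0.0068). Array weights turned Tfpi 1452432_at (-0.020) and Klf2 (0.051) for HDAd-gE3 minus HDAd-0, and Klf4 1417395_at (-0.015) for HDAd-0 minus PBS. The mean of probe sets gave 0.039 for Tfpi in HDAd-gE3 minus HDAd-0, and -0.163 for Plat and -0.010 for Klf4 in HDAd-0 minus PBS.

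With HDAd-gE3 replicate 4 and HDAd-0 replicate 5 left out together, HDAd-gE3 minus HDAd-0 turned for Tfpi 1451791_at (0.036), Plat 1415806_at (-0.147) and Klf4 1417394_at (-0.0065). HDAd-gE3 minus PBS turned for Thbd (-0.00038), Tfpi 1451790_a_at (0.034) and Tfpi 1452432_at (0.081), and HDAd-0 minus PBS for Klf4 1417394_at (0.039). With 1 array left out at a time, HDAd-gE3 minus HDAd-0 ranged over 0 for Thbd (-0.045 to 0.0029), Tfpi 1451791_at (-0.121 to 0.010), Tfpi 1452432_at (-0.163 to 0.234), Plat 1415806_at (-0.068 to 0.115), Klf2 (-0.139 to 0.198), Klf4 1417395_at (-0.0052 to 0.097) and Klf4 1417394_at (-0.022 to 0.119). HDAd-gE3 minus PBS did so for Thbd (-0.010 to 0.038), Tfpi 1451790_a_at (-0.100 to 0.034), Tfpi 1452432_at (-0.316 to 0.081), Plat 1458553_at (-0.142 to 0.045) and Klf4 1417394_at (-0.030 to 0.042), and HDAd-0 minus PBS for Klf4 1417395_at (-0.026 to 0.077) and 1417394_at (-0.102 to 0.039).

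Relative to the endothelial mean, the members separated between 2 groups numbered 3 to 8 of 14 for HDAd-gE3 against HDAd-0 with 1 array left out, against 22.5% to 60.4% of all probe sets. The 8 and the 60.4% came without HDAd-0 replicate 4. For HDAd-gE3 against PBS they numbered 5 to 8, against 32.4% to 54.3%, the 8 coming without HDAd-gE3 replicate 4 or PBS replicate 1. A set of 5 endothelial genes gave 3 for HDAd-gE3 against PBS (22.3% of all probe sets). Of the relative differences, 15 moved by more than the spread between arrays, and the sign changes with the median of the endothelial list are given in the report.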
